A study of Homo sapiens with 14 samples.

Results

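Regulators of G protein signalling (RGS proteins) were followed in a leukemia cell line exposed to the glucocorticoid dexamethasone. The genes chosen were RGS1, RGS2, RGS3, RGS10, RGS14, RGS16 and RGS19, each through the probe sets that the platform annotation pairs with that gene alone. This gave 15 probe sets of 7 genes, out of 19070 single-gene probe sets of 11963 genes. RS4;11 is an established B-precursor acute lymphoblastic leukemia line that carries a KMT2A rearrangement. Its expression was measured on Affymetrix hgu133a2 arrays, which read each gene through 1 or more probe sets. The groups were untreated cells (4 arrays), cells in 10 nM dexamethasone for 8 h (5 arrays) and cells in 10 nM dexamethasone for 24 h (5 arrays). All cells had first spent 2 days in charcoal-dextran treated serum, which is stripped of hormones. No cells were kept for 8 or 24 h without the drug, so time in culture and dexamethasone cannot be told apart, and whether untreated cells received the ethanol vehicle is not stated. A single cell line stands for the disease here.

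Receptors coupled to G proteins load the alpha subunit of a heterotrimeric G protein with GTP, and the alpha subunit and the beta-gamma pair then act on enzymes and channels. An RGS protein binds the active alpha subunit through its RGS domain and speeds the hydrolysis of GTP, which ends the signal. In lymphocytes these proteins are best known for limiting the response to chemokines. RGS1, RGS2, RGS3 and RGS16 belong to the R4 subfamily, RGS10 and RGS14 to the R12 subfamily and RGS19 to the RZ subfamily. The glucocorticoid receptor, to which dexamethasone binds, is a transcription factor that both activates and represses genes.

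Dexamethasone-treated cells held less RGS2, RGS16 and RGS10 transcript and more RGS19 transcript than untreated cells at both times. RGS1 and RGS3 were lower at 8 h and did not pass the test at 24 h, whereas RGS14 was higher at 24 h alone. On all arrays RGS16 showed the largest difference among the calls that every alternative kept. For RGS1, RGS3, RGS10 and RGS14 the probe sets of 1 gene did not all give the same result, so each probe set is described by itself.

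The sequences upstream of the start sites of 5 members are shown here because RGS2, RGS16 and RGS10 were lower at both times, RGS1 was lower at 8 h and RGS19 was higher at both times. They are the 250 bases before each gene's first listed start in RefSeq (build GRCh38.p14), written in the direction of transcription. RGS1 lies at chr1:192575523-192575772 (plus strand), RGS2 at chr1:192808789-192809038 (plus strand), RGS16 at chr1:182604390-182604639 (minus strand), RGS10 at chr10:119542720-119542969 (minus strand) and RGS19 at chr20:64079965-64080214 (minus strand). Capitals mark the letters of 3 searched motifs, namely the glucocorticoid response element hexamer (AGAACA or TGTTCT), the cAMP response element hexamer (TGACGT or ACGTCA) and the CCAAT box (CCAAT or ATTGG).
RGS1: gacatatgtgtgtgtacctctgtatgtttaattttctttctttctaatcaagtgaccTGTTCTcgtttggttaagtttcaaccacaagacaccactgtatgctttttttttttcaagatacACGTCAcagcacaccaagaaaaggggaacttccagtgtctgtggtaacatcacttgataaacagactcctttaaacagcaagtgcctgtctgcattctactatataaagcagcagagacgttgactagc
RGS2: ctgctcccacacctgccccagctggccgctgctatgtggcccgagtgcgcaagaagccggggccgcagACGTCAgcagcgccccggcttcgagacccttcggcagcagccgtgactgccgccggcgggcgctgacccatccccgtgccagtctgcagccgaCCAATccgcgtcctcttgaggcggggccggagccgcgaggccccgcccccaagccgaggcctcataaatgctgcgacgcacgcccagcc
RGS16: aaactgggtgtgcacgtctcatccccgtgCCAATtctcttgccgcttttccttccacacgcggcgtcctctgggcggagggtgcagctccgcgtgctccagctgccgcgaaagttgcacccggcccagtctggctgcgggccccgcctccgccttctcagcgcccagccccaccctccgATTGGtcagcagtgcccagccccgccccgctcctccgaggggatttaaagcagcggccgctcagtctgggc
RGS10: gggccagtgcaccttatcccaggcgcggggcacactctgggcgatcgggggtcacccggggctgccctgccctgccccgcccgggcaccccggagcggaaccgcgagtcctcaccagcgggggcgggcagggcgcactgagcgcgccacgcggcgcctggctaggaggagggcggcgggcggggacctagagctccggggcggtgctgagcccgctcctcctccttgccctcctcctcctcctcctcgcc
RGS19: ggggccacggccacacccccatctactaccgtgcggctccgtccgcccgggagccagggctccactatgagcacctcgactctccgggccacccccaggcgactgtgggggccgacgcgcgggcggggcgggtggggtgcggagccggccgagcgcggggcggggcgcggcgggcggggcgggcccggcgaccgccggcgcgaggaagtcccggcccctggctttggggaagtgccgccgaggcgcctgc
The RGS1 window held 1 glucocorticoid hexamer, 193 bases before the start, and 1 cAMP response hexamer at 129 bases. The RGS2 window held a cAMP response hexamer at 182 bases and a CCAAT box at 89 bases. That of RGS16 held CCAAT boxes at 221 and 71 bases, and those of RGS10 and RGS19 held none of the letters searched. Of the 13 listed promoters of the 7 genes, 3 held a glucocorticoid hexamer (RGS1 and 2 of the 5 of RGS3), 2 a cAMP response hexamer and 3 a CCAAT box, 1 of which was at RGS3. Over all 35116 RefSeq promoters of the same length, 12.4% held a glucocorticoid hexamer, 7.1% a cAMP response hexamer and 32% a CCAAT box on either strand. The full palindrome of both glucocorticoid hexamers with 3 bases between them was in 1 of the 35116 and in none of these 13. A match is a run of letters and not a measured binding site. RGS1 and RGS2 lie on chromosome 1 with RGS13 as the only protein-coding gene listed between them, and RGS16 is on the same chromosome.

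A probe set was called where limma, fitted on all 14 arrays and 19070 probe sets, gave a Benjamini-Hochberg adjusted p below 0.05. At 8 h against untreated cells, 7 of the 15 RGS probe sets were called lower and 1 was called higher. Over all probe sets 9.13% were called lower and 7.75% higher. The median log2 difference was -0.24 over the RGS probe sets and -0.02 over all. At 24 h against untreated cells, 4 were called lower and 3 higher, where 18.6% of all probe sets were called lower and 18.5% higher. With 3 of 15, the share called higher stood close to that of the whole array. The median log2 difference was then -0.19 over the RGS probe sets and -0.01 over all. At 24 h against 8 h, 3 were called higher and 0 lower, against 13.3% and 11.7% of all probe sets, with a median of 0.15 over the RGS probe sets and 0.01 over all. At an unadjusted limma p below 0.05, 5 were higher and 2 lower in this comparison, and the share of all probe sets at that threshold was not counted. With run as a block the 24 h against 8 h counts were 4 higher and 1 lower, where 18% and 15.7% of all probe sets were called. Leaving out any 1 of the 14 arrays left 1 or 2 called higher and 0 or 1 called lower. By gene, 5 of the 7 had a probe set called lower at 8 h and 3 at 24 h, and 1 had a probe set called higher at 8 h and 2 at 24 h. The share of all genes with any probe set called was not counted, and genes with several probe sets have more chances of a call. By the brightest probe set alone, 10.3% of all genes were lower at 8 h and 20.2% at 24 h, and 8.46% and 19.6% were higher.

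The groups did not overlap for 6 of the 15 probe sets at 8 h against untreated, 7 at 24 h against untreated and 1 at 24 h against 8 h. Of all probe sets 16.4%, 32.4% and 20.3% did not overlap in these comparisons, in that order. Of the 15 probe sets, 7 had a mean log2 value of at least 5 over the 14 arrays, and 11 lay above the median interquartile range of all single-gene probe sets. All 7 genes had at least 1 probe set above it. In these bulk samples fewer cells of a type and less RNA per cell cannot be told apart. The labels do not say that replicates were separate cultures, so a p-value here speaks only of array-to-array spread, part of which may be technical.

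**Figure D1:**
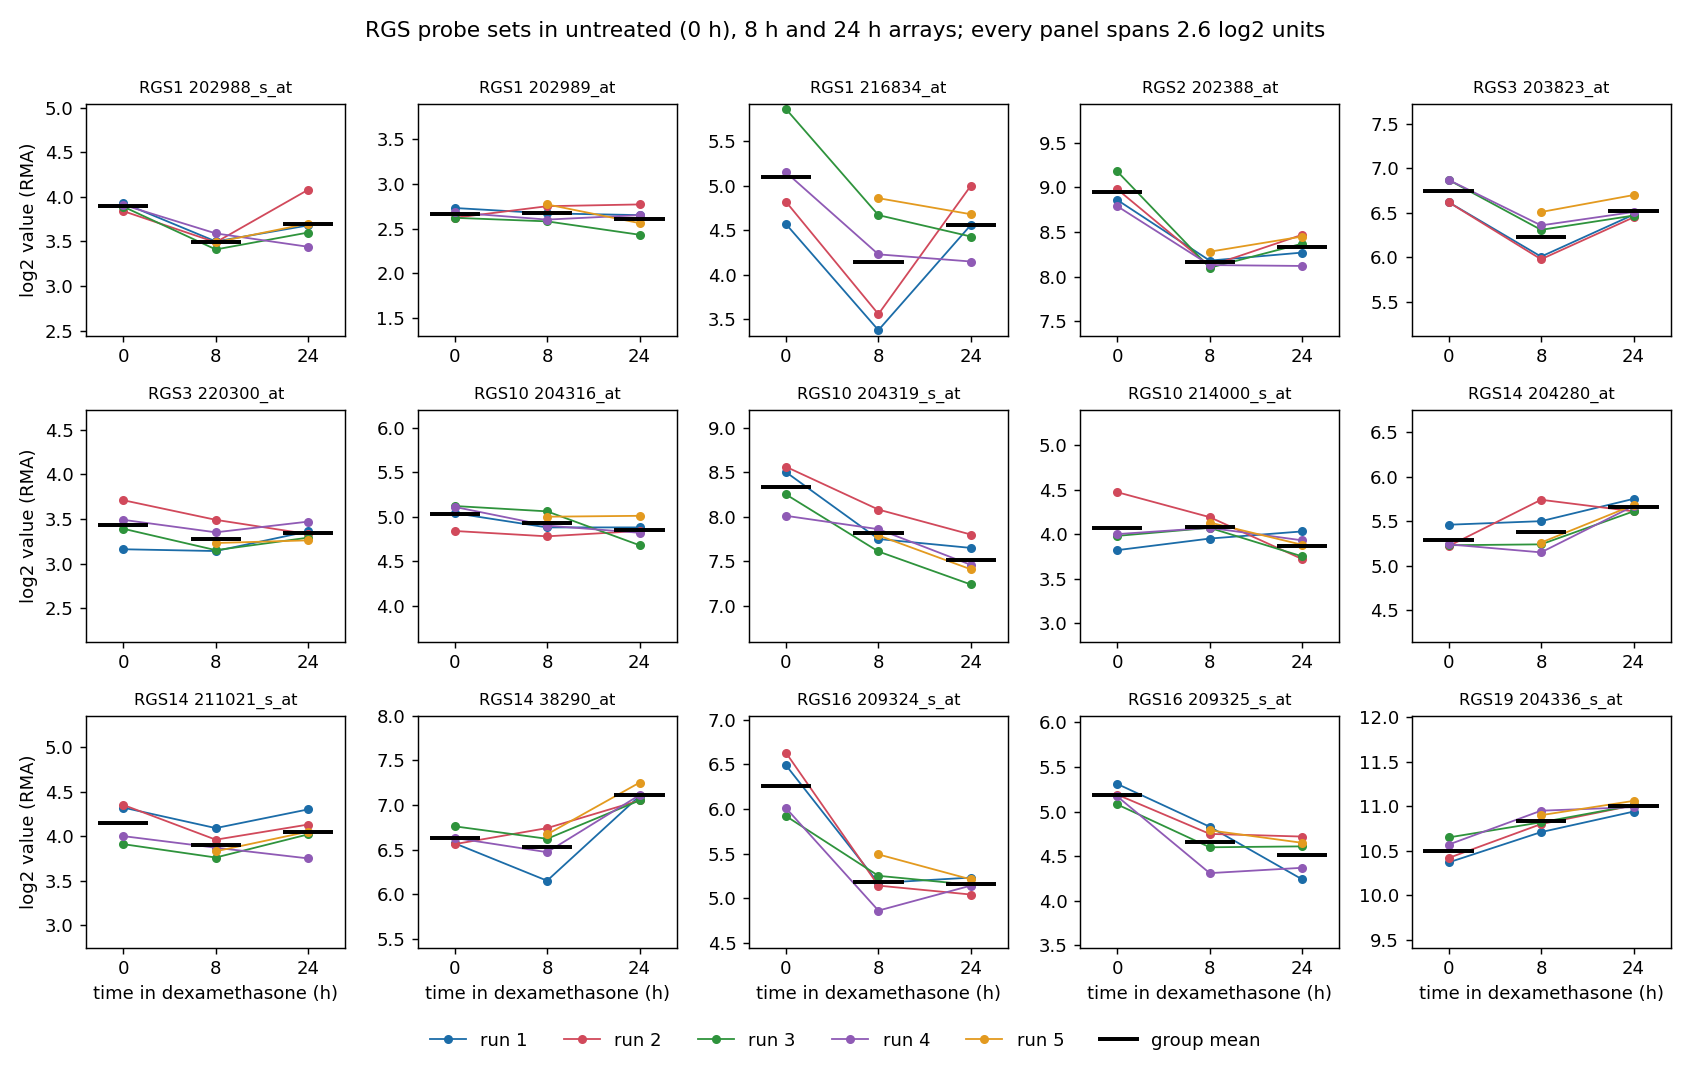
Log2 value of each RGS probe set (vertical axis) in untreated cells (0 h) and after 8 and 24 h of dexamethasone (horizontal axis), with a line per run, a point per array and a black bar at the group mean. RGS2 and both RGS16 probe sets sit lower in every treated array than in any untreated array, and RGS19 sits higher.

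The median log2 value of an array was 6.03 to 6.05 in untreated cells, 6.03 to 6.09 at 8 h and 6.07 to 6.11 at 24 h. The 3′ minus 5′ difference of the GAPDH control was 0.45 to 0.95, 0.51 to 0.96 and 0.54 to 1.02 on the log2 scale at the same times, with medians of 0.68, 0.81 and 0.97. That of the actin control was 1.23 to 2.69, 1.06 to 2.75 and 1.34 to 2.28, with medians of 1.74, 2.30 and 2.03. The part of these control values in the RGS results was not tested. Of 8 B-precursor markers 7 were measured, and their mean level was 9.37 to 9.47 in untreated cells, 9.05 to 9.23 at 8 h and 9.23 to 9.51 at 24 h. Among them 0 rose and 2 fell at 8 h, and 3 rose and 2 fell at 24 h, against untreated cells. Over all 11963 genes, each by its brightest probe set, 8.46% were called higher and 10.3% lower at 8 h, and 19.6% higher and 20.2% lower at 24 h. DNTT, the terminal transferase of lymphoid precursors, was 4.97 at 8 h and 4.48 at 24 h, against 6.29 in untreated cells, CD22 was 8.82 and 8.98, against 9.33, and CD79B was 10.55 at 24 h, against 9.57. The 5 T and NK cell markers averaged 5.26 to 5.53, 5.23 to 5.45 and 5.20 to 5.44 over the arrays of the 3 groups, the 5 monocyte and granulocyte markers 4.15 to 4.42, 4.16 to 4.27 and 4.12 to 4.36, and the 3 measured of 5 erythroid and platelet markers 4.51 to 4.78, 4.54 to 4.74 and 4.43 to 4.63. Of the T and NK cell markers NKG7 read 8.77 at 24 h and 8.39 at 8 h, against 8.62 in untreated cells, and the others had group means of 3.71 to 5.45. Among the monocyte and granulocyte markers LYZ rose and CSF1R fell at 24 h (log2 differences 0.44 and -0.33, limma adjusted p = 0.027 and 0.0242). In untreated cells LYZ and CSF1R lay at 4.76 and 5.49, and CD14, MPO and ELANE at 3.96, 3.55 and 3.51. The part of these marker differences in the RGS results was not tested. The labels give each array a date and, on 1 date, a letter, and arrays that share them are called a run here. There were 5 runs on 4 dates, and run 5 had no untreated array, so differences within runs rest on 4 runs against untreated cells and on 5 runs between the treated times.

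RGS16 acts on alpha subunits of the Gi and Gq families. On all arrays it had the largest difference from untreated cells of the 15 probe sets. Probe set 209324_s_at read 6.49, 6.63, 5.92 and 6.01 in untreated cells of runs 1 to 4, 5.17, 5.14, 5.25, 4.86 and 5.49 after 8 h in runs 1 to 5, and 5.23, 5.04, 5.15, 5.14 and 5.21 after 24 h (log2 values). Every treated array lay below every untreated one, and the untreated arrays of runs 1 and 2 were the highest. At 8 h it averaged 5.18 ± 0.22 (SD, n = 5), against 6.26 ± 0.35 in untreated cells (n = 4), a 2.11-fold lower level (log2 difference -1.08, SE 0.14, limma adjusted p = 3.81e-05). At 24 h the mean was 5.15 ± 0.07 and the level was 2.16-fold lower than in untreated cells (log2 difference -1.11, limma adjusted p = 7.6e-06). The 24 h and 8 h levels differed by -0.03, with a 95% interval of -0.31 to 0.25 (limma adjusted p = 0.922). Within runs the 8 h difference was below 0 in 4 of 4 and spanned -1.48 to -0.67.

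The second RGS16 probe set, 209325_s_at, moved in the same direction by a smaller amount. It read 5.31, 5.19, 5.08 and 5.17 in untreated cells, 4.83, 4.75, 4.60, 4.31 and 4.79 after 8 h and 4.24, 4.72, 4.61, 4.37 and 4.65 after 24 h. Here too neither treated group overlapped the untreated arrays. The log2 difference from untreated was -0.53 at 8 h (SE 0.114, limma adjusted p = 0.00364) and -0.67 at 24 h (limma adjusted p = 0.000177). With the arrays of 1 date alone, runs 1 and 2, and so fewer arrays per group, the 8 h call did not hold (log2 difference -0.46, limma adjusted p = 0.0891).

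RGS2, which prefers alpha subunits of the Gq family, was measured by a single probe set, 202388_at. Its log2 values were 8.86, 8.98, 9.18 and 8.79 in untreated cells, 8.18, 8.12, 8.10, 8.13 and 8.28 after 8 h and 8.27, 8.47, 8.37, 8.12 and 8.45 after 24 h. All 10 treated arrays fell below all 4 untreated arrays. The level at 8 h was 8.16 ± 0.07, against 8.95 ± 0.17 in untreated cells, or 1.73-fold lower (log2 difference -0.79, SE 0.0887, limma adjusted p = 8.72e-06). At 24 h it was 8.34 ± 0.14 and 1.53-fold lower than in untreated cells (log2 difference -0.62, limma adjusted p = 3.02e-05). The 24 h arrays averaged 0.18 above the 8 h arrays, which did not pass the test (95% interval -0.0016 to 0.35, limma adjusted p = 0.154). The within-run difference at 8 h was -1.08 to -0.66 over 4 runs, each below 0.

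RGS1, which limits the migration of B cells toward chemokines, was lower at 8 h in both probe sets that were called, although all 3 of its probe sets were dim. Probe set 202988_s_at read 3.93, 3.84, 3.89 and 3.91 in untreated cells, 3.50, 3.49, 3.41, 3.59 and 3.49 after 8 h and 3.68, 4.08, 3.60, 3.44 and 3.70 after 24 h. The 8 h arrays lay below all untreated arrays, and the 24 h arrays spread across both groups with run 2 the highest. The log2 difference was -0.39 at 8 h (SE 0.0973, limma adjusted p = 0.0096) and -0.19 at 24 h (limma adjusted p = 0.147). Without 24 h replicate 2, the array of run 2, the 24 h difference was -0.29 and passed the test (limma adjusted p = 0.00389). Leaving out 24 h replicate 5 brought the difference between 24 h and 8 h to 0.27 (limma adjusted p = 0.0393), compared with 0.20 on all arrays (limma adjusted p = 0.133). On the arrays of runs 1 and 2 alone, with fewer arrays per group, the 8 h difference of -0.39 was not called (limma adjusted p = 0.0948).

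The brightest RGS1 probe set, 216834_at, varied most between runs. It read 4.57, 4.82, 5.86 and 5.15 in untreated cells, 3.38, 3.56, 4.67, 4.23 and 4.86 after 8 h and 4.56, 5.0, 4.43, 4.15 and 4.68 after 24 h. The 8 h and untreated arrays overlapped between runs, but the 8 h array was lower in 4 of 4 runs, by 0.92 to 1.26. The pooled difference at 8 h was -0.96 (SE 0.301, limma adjusted p = 0.0378), or 1.95-fold lower. This call was lost without 8 h replicate 1 (-0.77, limma adjusted p = 0.0857), replicate 2 (-0.82, 0.0853) or replicate 5 (-0.98, 0.06), and without untreated replicate 3 (-0.71, 0.13) or 4 (-0.95, 0.0779). At 24 h the difference from untreated cells was also fitted on subsets of the dates, with fewer arrays per group. In runs 1 and 2 it was 0.08 (limma adjusted p = 0.75), and in runs 3 to 5 it was -1.08 (limma adjusted p = 0.00432). The 24 h arrays lay 1.31 above the 8 h arrays in runs 1 and 2 (limma adjusted p = 0.0016), against -0.16 in runs 3 to 5 (limma adjusted p = 0.643). Whether these dates differ from each other was not tested. The third probe set, 202989_at, held means between 2.61 and 2.68 in the 3 groups and was called in no comparison.

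RGS3, an R4 member that acts on Gi and Gq alpha subunits and has several start sites, was lower at 8 h in probe set 203823_at. The log2 values were 6.62, 6.62, 6.87 and 6.87 in untreated cells, 6.01, 5.98, 6.31, 6.36 and 6.51 after 8 h and 6.48, 6.45, 6.47, 6.51 and 6.70 after 24 h. All 8 h arrays lay below all untreated arrays, while the 24 h arrays overlapped both groups. The 8 h level was 6.24 ± 0.23, against 6.75 ± 0.14 in untreated cells, or 1.42-fold lower (log2 difference -0.51, SE 0.107, limma adjusted p = 0.00293). Within runs this difference spanned -0.64 to -0.51. At 24 h the difference from untreated cells was -0.22 (limma adjusted p = 0.125) and became -0.28 with run as a block (limma adjusted p = 0.00501), with all 4 runs below 0.

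The 24 h level of RGS3 203823_at stood above the 8 h level in 5 of 5 runs, by 0.15 to 0.47. The pooled difference of 0.29 passed the threshold narrowly (SE 0.101, limma adjusted p = 0.0476). It was lost in 19 of the alternatives, including the removal of any 24 h array (adjusted p of 0.0562 to 0.122), of any untreated array (0.0508 to 0.0514) and of 8 h replicate 1, 2 or 3 (0.126, 0.128 and 0.0553). With replicate 1 or 2 of the 8 h arrays left out the difference was 0.23 or 0.22. The other RGS3 probe set, 220300_at, had group means of 3.27 to 3.44 and was not called in any comparison.

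**Figure D2:**
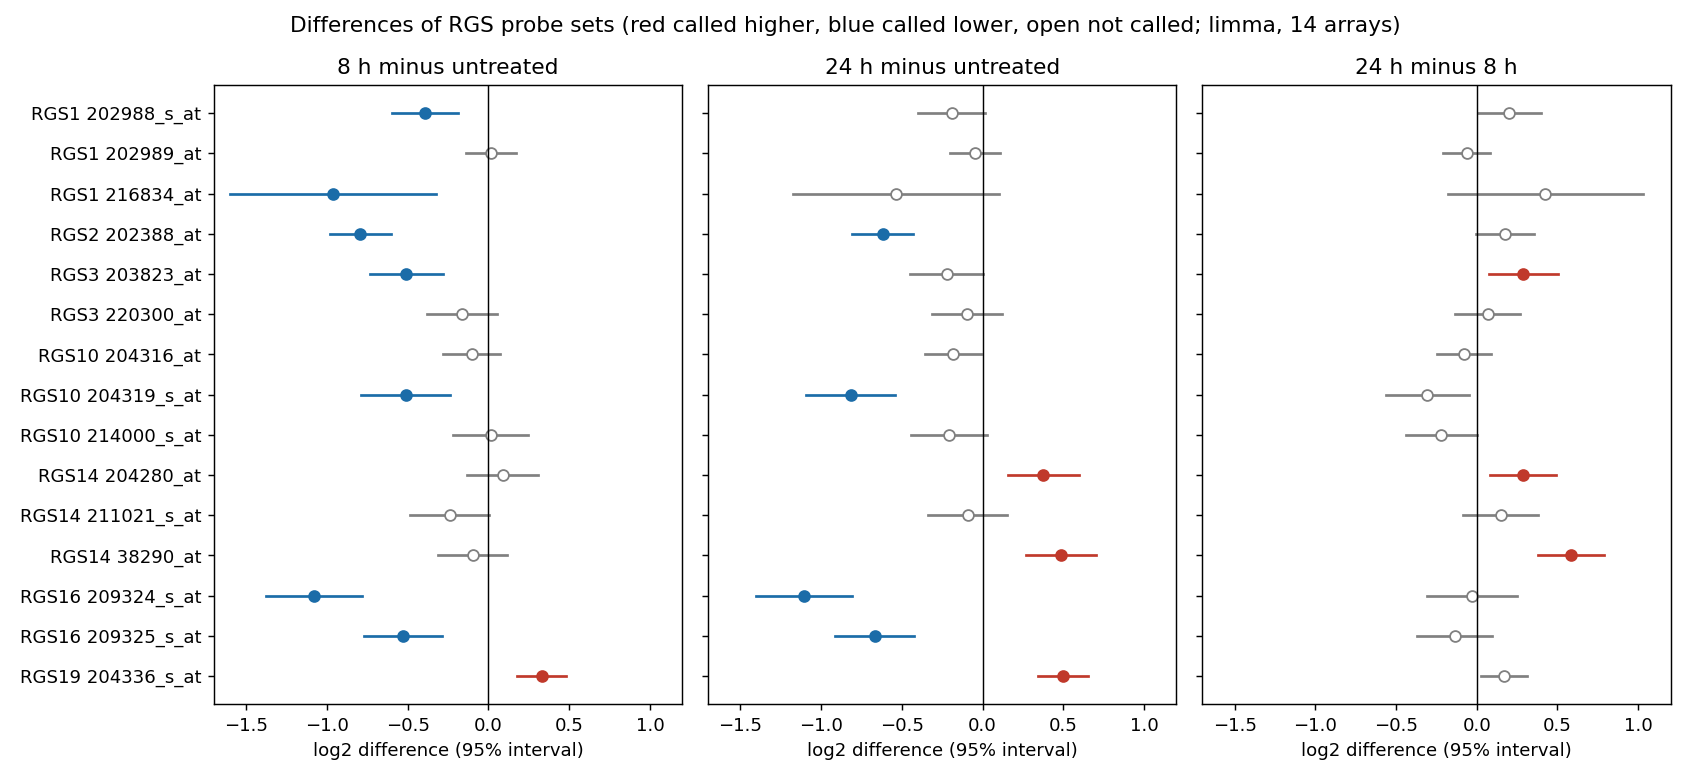
Log2 difference (horizontal axis) of each RGS probe set at 8 h minus untreated, 24 h minus untreated and 24 h minus 8 h, with 95% intervals from limma over 14 arrays; filled red points were called higher, filled blue points lower and open points were not called. The 7 probe sets called lower at 8 h lie between -1.08 and -0.39.

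RGS10, a small R12 protein that acts on Gi alpha subunits, was lower at both times in its brightest probe set. Probe set 204319_s_at read 8.50, 8.56, 8.25 and 8.01 in untreated cells, 7.75, 8.08, 7.61, 7.86 and 7.79 after 8 h and 7.65, 7.80, 7.24, 7.46 and 7.41 after 24 h. The 24 h arrays lay below all untreated arrays, and at 8 h only the array of run 2 reached the untreated range. The level at 8 h was 7.82 ± 0.17, against 8.33 ± 0.25 in untreated cells (log2 difference -0.51, SE 0.129, limma adjusted p = 0.0112). At 24 h it was 7.51 ± 0.21 and 1.76-fold lower than in untreated cells (log2 difference -0.82, limma adjusted p = 8.32e-05). The step between 24 h and 8 h was -0.30 (limma adjusted p = 0.084), was below 0 in 5 of 5 runs and passed the test with run as a block (limma adjusted p = 0.00917). It also passed without 24 h replicate 2 (-0.38, limma adjusted p = 0.0338).

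The other RGS10 probe sets differed less. The group means of 204316_at were 5.03 in untreated cells, 4.92 at 8 h and 4.85 at 24 h. Its 24 h difference was -0.18 (limma adjusted p = 0.101), -0.21 with run as a block (limma adjusted p = 0.0356) and -0.25 without untreated replicate 2 (limma adjusted p = 0.0321). Probe set 214000_s_at averaged 4.07, 4.08 and 3.86 at the 3 times and was not called. Its 24 h minus 8 h difference of -0.22 passed only when untreated replicate 2 was left out (limma adjusted p = 0.0412), when only the groups compared were fitted (0.0492) or when only runs 3 to 5 were used (-0.24, 0.0257).

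RGS14, which carries a GoLoco motif for inactive Gi alpha subunits and Ras-binding domains beside its RGS domain, was higher at 24 h. Probe set 38290_at read 6.57, 6.56, 6.76 and 6.63 in untreated cells, 6.15, 6.74, 6.62, 6.47 and 6.67 after 8 h and 7.10, 7.05, 7.05, 7.11 and 7.25 after 24 h. Every 24 h array lay above every array of the other groups, and run 1 was the lowest of the 8 h arrays. The 24 h level was 7.11 ± 0.08, against 6.63 ± 0.09 in untreated cells, or 1.4-fold higher (log2 difference 0.49, SE 0.101, limma adjusted p = 0.00101). Against 8 h (6.53 ± 0.23) it was 1.5-fold higher (log2 difference 0.58, SE 0.0953, limma adjusted p = 0.000241), and higher in 5 of 5 runs. At 8 h the difference from untreated cells was -0.10, with a 95% interval of -0.31 to 0.12 (limma adjusted p = 0.618).

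A second RGS14 probe set, 204280_at, gave 5.46, 5.22, 5.23 and 5.24 in untreated cells, 5.50, 5.74, 5.24, 5.15 and 5.26 after 8 h and 5.75, 5.61, 5.61, 5.67 and 5.68 after 24 h. The 24 h arrays lay above all untreated arrays, but the 8 h array of run 2 reached the 24 h range. The 24 h difference from untreated cells was 0.38 (SE 0.103, limma adjusted p = 0.00822). On the arrays of runs 1 and 2 alone, with fewer arrays per group, neither probe set kept its 24 h call. The differences were 0.51 for 38290_at (limma adjusted p = 0.0604) and 0.34 for 204280_at (limma adjusted p = 0.0711), against 0.49 and 0.38 on all arrays. The 24 h minus 8 h difference of 204280_at, 0.29 (limma adjusted p = 0.0409), was lost without any 24 h array (0.27 to 0.30, adjusted p of 0.0532 to 0.0872) or without 8 h replicate 3, 4 or 5 (0.25, 0.26 and 0.23, adjusted p of 0.0963, 0.0961 and 0.113). It was 0.06 in runs 1 and 2. The third probe set, 211021_s_at, averaged 4.14 in untreated cells, 3.90 at 8 h and 4.05 at 24 h. Its 8 h difference of -0.24 was not called (limma adjusted p = 0.192), but passed the test with run as a block (-0.23, limma adjusted p = 0.0347). At 24 h its difference from untreated cells was -0.09 (limma adjusted p = 0.601), where the other RGS14 probe sets were called higher.

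RGS19, also named GAIP and first found as a partner of a Gi alpha subunit, was the only member called higher at 8 h. Its single probe set, 204336_s_at, read 10.37, 10.42, 10.65 and 10.57 in untreated cells, 10.71, 10.80, 10.82, 10.95 and 10.90 after 8 h and 10.94, 11.01, 11.01, 10.99 and 11.06 after 24 h. All treated arrays lay above all untreated arrays, and the 24 h arrays were spread over the narrowest range. The 8 h level was 10.84 ± 0.10, against 10.50 ± 0.13 in untreated cells, or 1.26-fold higher (log2 difference 0.33, SE 0.0716, limma adjusted p = 0.00373). At 24 h it was 11.00 ± 0.05 and 1.41-fold higher than in untreated cells (log2 difference 0.50, limma adjusted p = 3.09e-05). The 24 h level was above the 8 h level in 5 of 5 runs, by 0.04 to 0.23, and the pooled difference of 0.17 was not called (limma adjusted p = 0.0869), but was with run as a block (limma adjusted p = 0.03).

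Across the 15 probe sets and 3 comparisons, 18 of 45 differences were called. Of all probe sets 16.9% were called at 8 h and 37.1% at 24 h against untreated cells, and 24.9% at 24 h against 8 h. Of the 18, 11 kept their call and direction in every alternative that tested them, a share not counted over all probe sets. They were the 8 h and 24 h differences from untreated cells of RGS2, RGS16 209324_s_at, RGS10 204319_s_at and RGS19, the 8 h difference of RGS3 203823_at, the 24 h difference of RGS16 209325_s_at and the 24 h against 8 h difference of RGS14 38290_at. A variance filter followed by a mean per gene gave 1 of the 7 genes higher and 5 lower at 8 h, and 2 higher and 3 lower at 24 h, against untreated cells. Of the 6794 genes in that fit 15.6% were higher and 18.8% lower at 8 h, and 30.4% higher and 32.4% lower at 24 h.

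Probe sets of other genes whose profile over the 14 arrays came closest to a member were found by the root mean square difference of log2 values centred on each probe set's mean. Each member stood by its brightest probe set, and the distance was not scaled to the spread of a probe set. The closest to RGS2 were BCL2, an inhibitor of apoptosis (0.129), and CCND3, a D-type cyclin (0.134). Nearest to RGS16 were MID1IP1 (0.176) and RASGRP1, a Ras activator of lymphocytes (0.184). RGS19 lay nearest to RCBTB2 (0.0573) and TNIP2 (0.0676), RGS3 to OAS2 (0.0732) and PEX5 (0.0919), and RGS10 to AKR7A3 (0.0953) and NTAQ1 (0.0992). RGS14 lay nearest to LINC01558 (0.101) and PBXIP1 (0.119). For RGS1 the nearest were CACNA1A (0.358) and TBC1D30 (0.362), farther than for any other member. RGS1 stood by the dim 216834_at, whose SD was 0.56 in untreated cells and 0.65 at 8 h. These distances share the 14 arrays and their runs and are a description.

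The rest of the RGS family and the proteins that RGS proteins act on were read through each gene's brightest probe set. Over all 11963 genes, 8.46% were called higher and 10.3% lower at 8 h, 19.6% higher and 20.2% lower at 24 h, and 14.5% higher and 13.2% lower at 24 h against 8 h. Of 14 other RGS family genes 10 were measured, with 1 higher and 1 lower at each time against untreated cells. RGS13, an R4 gene of B cells that lies between RGS1 and RGS2, was 4.27 at 8 h and 4.15 at 24 h, against 5.08 in untreated cells (log2 differences -0.82, SE 0.211, and -0.93, limma adjusted p = 0.0127 and 0.00193). RGS6, an R7 gene, rose in probe set 210270_at by 0.54 at 8 h and 1.10 at 24 h (limma adjusted p = 0.00266 and 6.29e-07), but its other probe sets, 211448_s_at and 214538_x_at, were not called against untreated cells. The median log2 difference of these 10 genes was 0.03 at 8 h and 0.01 at 24 h, against -0.02 and -0.01 over all genes.

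Of 16 genes with an RGS homology domain outside the family 11 were measured. At 8 h 0 were called by limma (2 at an unadjusted p below 0.05, a share not counted over all genes). At 24 h 3 rose against untreated cells, and 2 rose and 1 fell against 8 h. Of all genes 8.46% rose and 10.3% fell at 8 h, and 19.6% and 20.2% at 24 h. The shares at 24 h against 8 h were 14.5% and 13.2%. AKAP10, a scaffold for protein kinase A, rose by 0.32 at 24 h in 213396_s_at (limma adjusted p = 0.00724), and its other probe set, 205045_at, was not called. GRK4, a receptor kinase, was 0.33 lower at 24 h than at 8 h in 208365_s_at (limma adjusted p = 0.0076), and its other probe set, 210600_s_at, was not called.

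The alpha subunits were called in both directions. All 15 were measured, some by dim probe sets, which are also among the calls. At 8 h 3 rose and 2 fell, and at 24 h 4 rose and 4 fell. At 24 h against 8 h 4 rose and 0 fell (1 fell at an unadjusted limma p below 0.05). Over all genes 8.46% rose and 10.3% fell at 8 h, and 19.6% and 20.2% at 24 h. At 24 h against 8 h the shares were 14.5% and 13.2%. GNAI1, a Gi alpha subunit that inhibits adenylyl cyclase, was 7.89 at 8 h and 8.70 at 24 h, against 5.82 in untreated cells (log2 differences 2.07 and 2.88, SE 0.177, limma adjusted p = 4.58e-07 and 1.97e-09). GNA12 was 8.21 at 8 h and 8.87 at 24 h, against 6.82 in untreated cells (1.38 and 2.05, limma adjusted p = 1.08e-07 and 2.17e-10). GNAQ, which activates phospholipase C beta, rose by 0.75 and 1.35 in 202615_at, and its second probe set was not called. GNAZ and GNA15, named here as the alpha subunits that fell at 8 h and so chosen after their values were seen, were lower by 1.04 and 0.64. The median of the 15 subunits was -0.01 at 8 h and 0.01 at 24 h, beside -0.02 and -0.01 over all genes. Of 17 beta and gamma subunits 13 were measured, with 0 called by limma at 8 h and 0 at an unadjusted p below 0.05. At 24 h 4 were higher than in untreated cells and 5 higher than at 8 h. For alpha, beta and gamma subunits alike, the share of all genes at an unadjusted p below 0.05 was not counted. GNG7 and GNG11 rose by 0.79 and 1.08 at 24 h (limma adjusted p = 1.54e-06 and 0.000102), and GNG10 by 0.22 (0.00801).

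**Figure D3:**
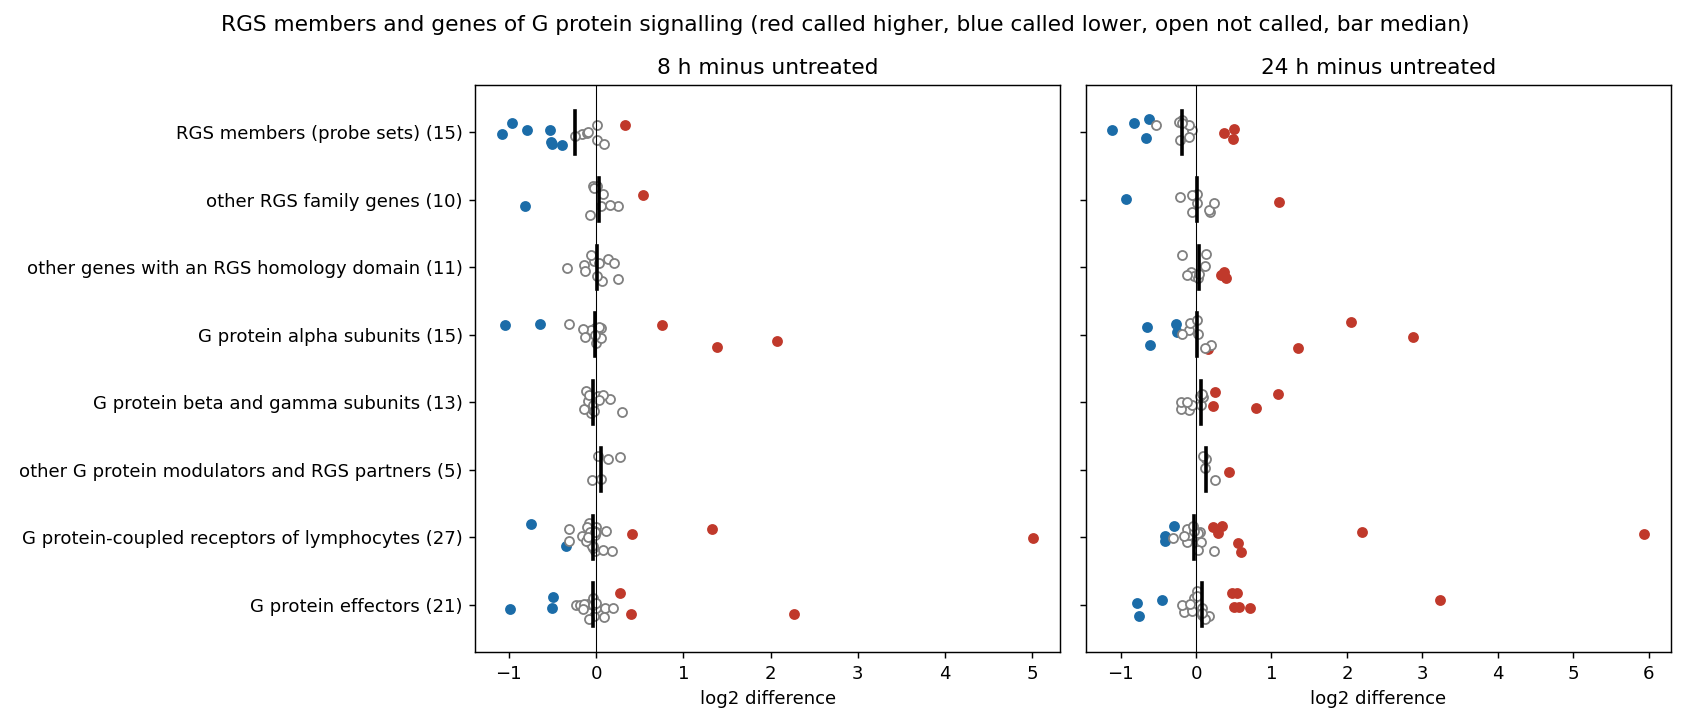
Log2 difference (horizontal axis) at 8 h and at 24 h from untreated cells for the 15 RGS probe sets and for the genes of 7 lists of G protein signalling, each gene by its brightest probe set; numbers in brackets count the points, and bars mark medians. The RGS probe sets have a median of -0.24 at 8 h, while the medians of the lists lie between -0.04 and 0.06.

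Of 11 other modulators and partners of RGS proteins 5 were measured, and GPSM3, which holds GoLoco motifs, was the only one called (log2 difference 0.44 at 24 h, SE 0.105, limma adjusted p = 0.0028). The other GPSM3 probe set, 214847_s_at, was not called. Among 31 receptors of lymphocytes coupled to G proteins 27 were measured. At 8 h 3 were higher and 2 lower, and at 24 h 7 were higher and 3 lower. The calls include dim probe sets. Over all genes 8.46% were higher and 10.3% lower at 8 h, and 19.6% and 20.2% at 24 h. The receptor of UDP-sugars, P2RY14, was 8.28 at 8 h and 9.21 at 24 h, against 3.27 in untreated cells, and the chemokine receptor CCR1 was 6.30 and 7.17, against 4.97. CXCR4, the receptor of CXCL12, rose by 0.41 and 0.60 in 217028_at (limma adjusted p = 0.00277 and 3.06e-05), and its 2 other probe sets rose as well. Of 22 effectors 21 were measured, with 3 higher and 3 lower at 8 h and 6 higher and 3 lower at 24 h. The shares of all genes are those given for the receptors. PLCB4, a phospholipase C beta, rose by 2.27 and 3.24 (limma adjusted p = 6.97e-06 and 2.42e-08). PDE4A, a cAMP phosphodiesterase, fell by 0.99 and 0.78 in 204735_at, with its 3 other probe sets not called, and ADCY3, an adenylyl cyclase, fell by 0.75 at 24 h (limma adjusted p = 1.02e-06).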

How the data were processed

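Total RNA of RS4;11 cells (4 untreated, 5 at 8 h and 5 at 24 h in 10 nM dexamethasone) was hybridised to Affymetrix hgu133a2 arrays per the labels, although the study's methods name another maker. The deposited values are log2 expression values that the authors background-corrected and normalized with RMA in the affy package, whose version is not given in the sources used here. The authors left out 1 untreated replicate after quality control. Of 22277 rows, 19070 were annotated with 1 gene, 1043 with several and 2164 with none.

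All single-gene probe sets were fitted with limma 3.58.1 (R 4.3.3) over 14 arrays in 3 groups, with Benjamini-Hochberg adjustment over all of them and a threshold of 0.05. The study's variance filter (quantile 0.5) and mean per gene were run as alternatives, because members were chosen as probe sets. The fit was tested on simulated data. Residuals of arrays that share a run, taken from dates in the labels, correlated in all 13 pairs (r of 0.341 to 0.56). Pairs of other runs spanned -0.486 to 0.501, and the highest of these was between runs 1 and 2, which share a date. Such pairs were above 0 within runs 1 and 2 and within runs 3 to 5, and below 0 between these sets. The correlations therefore do not separate a pairing by run from this split. The block on run is printed where it changes a call. Title numbers and runs differ for numbers 4 and 5. Intensity near background and the number of arrays limit the precision, and levels of different probe sets are not read as relative amounts of transcript.

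Members, lists and motifs were chosen with earlier results of these data known. Genes outside the members were named by a rule: the 2 probe sets closest in profile to each member, and of each list the up to 3 called genes of smallest adjusted p. GNAZ, GNA15 and single cell markers were named after their values were seen. A result for 1 of these genes is not reported here. Alternatives were other normalizations, filters, blocks, array weights, dates alone and each array left out. Promoter letters came from RefSeq, GRCh38.p14.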

Additional observations from a re-analysis of the deposited data

Results flagged for a closer look

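In 2 of the 45 groups of arrays examined, 1 array stood far from the others by its gap to the nearest one, which chance gives in about 1 of 20 groups. RGS3 203823_at read 6.70 in replicate 4 at 24 h, where the gap to the nearest array was 0.783 of the group's range. RGS14 204280_at read 5.46 in untreated replicate 1, with a gap of 0.92 of the range.

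The effect at 24 h differed from the effect at 8 h for 3 probe sets, by the limma contrast of 24 h against 8 h. The untreated arrays cancel in its estimate but enter the estimate of spread. The difference was 0.58 for RGS14 38290_at, 0.29 for RGS14 204280_at and 0.29 for RGS3 203823_at. The call was lost in 12 alternatives for RGS14 204280_at and in 19 for RGS3 203823_at.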

How the results depend on the processing

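Of the 18 called differences, 11 kept their call and direction in every alternative that tested them, and none of the 18 changed sign. The share of called differences that did so over all probe sets was not counted. The count of RGS probe sets called lower at 8 h fell to 4, of 7 tested, with a mean log2 value of at least 5. Of all probe sets in that fit 14.8% were called lower. Called higher at 24 h against untreated cells was 1 in runs 1 and 2 alone, and called lower was 7 in runs 3 to 5 alone. The shares of all probe sets were 17% and 20%, in that order. At 24 h against 8 h, 1 was called higher with equal array medians and with only the groups compared. Of all probe sets 11.7% and 13.1% were called higher in these fits. In the same comparison, 1 was called lower with run, title number or date as a replicate block or run as a random block. The same count was called lower with array weights or only the groups compared. Across these fits 11.8% to 15.7% of all probe sets were called lower. In runs 3 to 5 alone 2 were called lower, beside 12.9% of all probe sets. With run as the replicate block 1 was called higher and 8 lower at 8 h, and 3 higher and 6 lower at 24 h. Of all probe sets 11.2% were higher and 13.3% lower at 8 h in that fit, and 21.7% and 22% at 24 h. In the 3 comparisons 4673, 8325 and 6428 of all probe sets were called. With the variance filter and mean per gene 4270 of 6794 genes were called at 24 h. The cause of these shifts was not tested, except that filters test fewer features.

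With 1 array left out in turn, called lower at 8 h ranged from 6 to 7, called lower at 24 h from 4 to 5, and at 24 h against 8 h called higher from 1 to 2 and called lower from 0 to 1. All probe sets called ranged from 2592 to 3238, from 6524 to 7133 and from 4194 to 4769 in the 3 comparisons.

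Sign changes were limited to differences that were not called. For 8 h, RGS1 202989_at (0.01) became -0.0032 with equal medians and -0.012 without run 5, RGS10 214000_s_at (0.01) became -0.0026 with equal medians and -0.082 in runs 1 and 2, and RGS14 204280_at (0.09) became -0.015 with array weights and -0.021 in runs 3 to 5. For 24 h, RGS1 202989_at (-0.05) became 0.035 and RGS1 216834_at (-0.54) became 0.084 in runs 1 and 2. For 24 h against 8 h, in runs 1 and 2 RGS1 202989_at (-0.06) became 0.0042 and RGS10 204316_at (-0.08) became 0.029, in runs 3 to 5 RGS1 216834_at (0.43) became -0.16, and without run 5 RGS16 209324_s_at (-0.03) became 0.034. With single arrays left out, the 8 h difference ranged from -0.012 to 0.036 for RGS1 202989_at, from -0.069 to 0.15 for RGS10 214000_s_at and from -0.0029 to 0.15 for RGS14 204280_at, and the 24 h against 8 h difference of RGS16 209324_s_at from -0.11 to 0.047. Calls of other named genes lost were, in runs 1 and 2 alone, RGS6 and CXCR4 at 8 h, GNG10 at 24 h and GNG10, CCR1 and GRK4 at 24 h against 8 h, and, in runs 3 to 5 alone, RGS13 at 8 h. Fits on part of the dates have fewer arrays per group.

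Of the 15 RGS probe sets only 7 reached a mean log2 value of 5, and the dimmer ones carry less signal over background.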
